A study of Sus scrofa with 8 samples.

Results

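In pig backfat, 10 genes of lysosomal protein breakdown were examined: the cysteine cathepsins CTSB, CTSC, CTSH, CTSK, CTSL, CTSS and CTSZ, the aspartic cathepsin CTSD, the asparaginyl endopeptidase legumain (LGMN) and cystatin C (CST3), a secreted inhibitor of cysteine proteases. The members were the array features, called probe sets, whose annotation gave exactly 1 gene symbol and whose symbol was 1 of these 10. They were chosen by name and not by a cut on their values. Earlier results of these arrays were known, so a shared direction among the members is not independent evidence. The rule found 9 of the 10 genes, of 6765 genes named on the array, with 16 probe sets: 4 for CTSC, 3 each for CTSS and CST3, and 1 each for the other 6. No probe set carried the symbol CTSL, so that gene is in none of the member counts. A probe set named CTSV, whose RefSeq entry lists CTSL among its synonyms, was not counted as a member. Its values are given with the other cathepsins below, and whether it measures CTSL was not tested.

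Cathepsins are made as inactive precursors, sorted to the lysosome and activated there at acid pH, where they cut proteins delivered by endocytosis and autophagy. Macrophages are rich in them, and fat cells and fibroblasts also make them. Some are secreted and can cut the extracellular matrix, and cathepsin S trims the invariant chain that occupies MHC class II molecules. Cystatin C binds the active site of cysteine cathepsins outside the cell, and does not inhibit the aspartic cathepsin D.

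The samples were total RNA of backfat from the middle of the body: 4 samples from KNP pigs at 7 months of age and 4 from YS pigs at 6 months. The labels give YS as Yorkshire for 1 sample and do not spell out KNP. The labels say that both breeds were raised alike, and no treatment or genetic change is named. Each sample was hybridised to 1 Affymetrix GeneChip Porcine Genome Array. Breed and age cannot be told apart, because every KNP sample was 1 month older, and sex is not stated. The labels do not say that each sample came from a different animal, so the errors and p-values here cover no more than the scatter among these arrays, which may be technical. Values are intensities ("signal"), or log2(signal + 16) where a log2 value is named, and a difference is always KNP minus YS.

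Some arrays stood apart before any comparison. The 3'/5' difference, the log2 signal of 3' minus 5' probe sets of the actin, GAPDH and elongation factor controls, rises when RNA is broken or copied incompletely. It was 8.54 on KNP replicate 1, 5.88 on KNP replicate 2 and 4.40 on YS replicate 4, and between 2.12 and 3.17 on the other 5. Skeletal muscle genes were high on KNP replicate 2, with a summed signal of 84987 over 13 of them against 1026 to 2889 on the other 7 arrays. Of 15 adipocyte markers, 13 were on the array and each lay above the level of control probe sets with no pig target on at least 1 array, with summed signals of 142981 to 236505 in KNP and 145344 to 230366 in YS.

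No member passed the test for a difference between the breeds. All 16 probe sets passed the filter on low values, lay above the no-target level on all 8 arrays and were tested with limma. Of these, 0 had an adjusted p under 0.05, against 0% of the 17999 probe sets tested, and each had an adjusted p of 1. At an unadjusted p under 0.05 the count was also 0 of 16, where 2.84% of all probe sets were past it (1.49% higher and 1.35% lower in KNP). That even split was not stable, since 627 of 883 were higher without YS replicate 4 and 307 of 877 after adjustment for the 3'/5' difference. The mean was higher in KNP for 13 of 16 probe sets and for 8 of 9 genes taken by their brightest probe set, where 49.9% of all probe sets and 51.8% of named genes were higher. The median difference was 0.30 over the 16, against -0.00101 over all probe sets tested, and differences ran from -0.25 to 0.62. The 95% interval of every member held 0, and 0 reached a 2-fold difference, against 3.67% of all probe sets. Without KNP replicate 4, 11 of 16 were higher. Without YS replicate 4, 11 of 16 were higher and their median difference was 0.15. Among the 957 named genes at least as bright as the dimmest of the 9, 53.7% were higher in KNP (median 0.020), and 38.8% without YS replicate 4 (median -0.087).

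**Figure D1:**
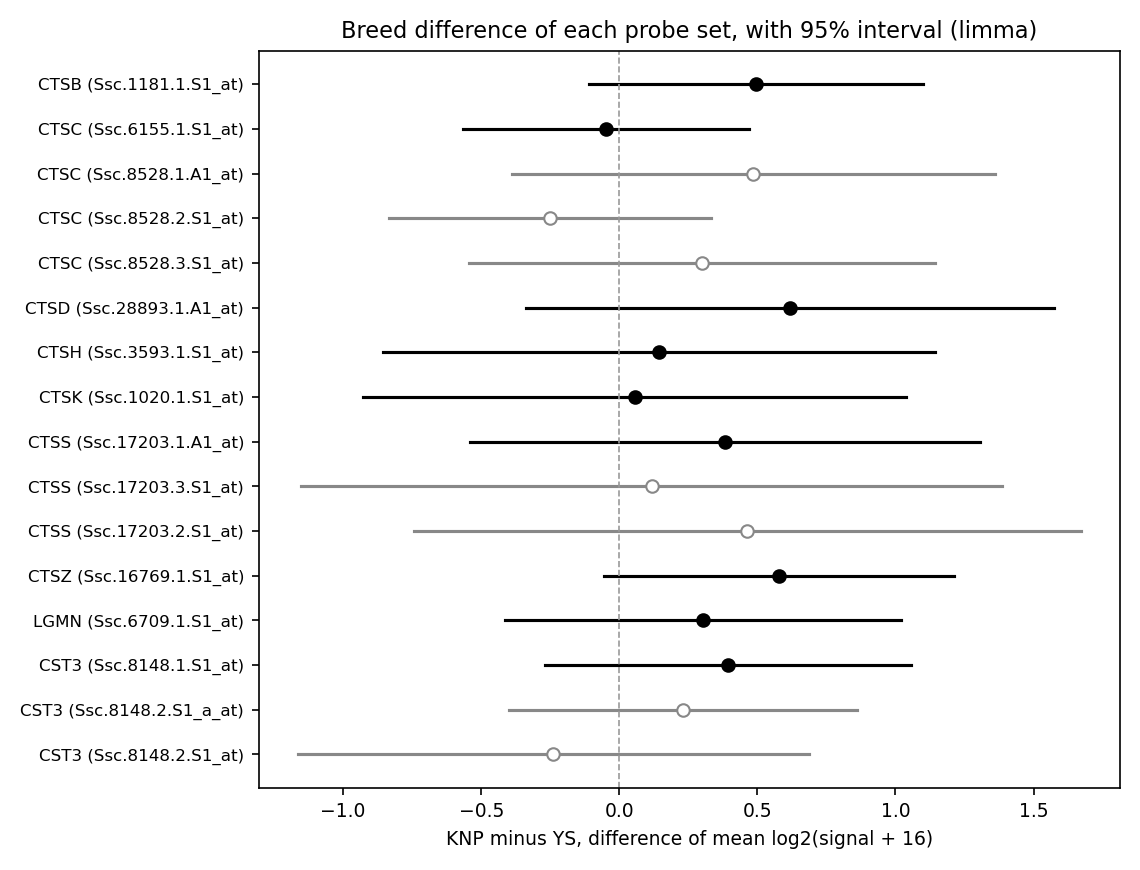
Difference of mean log2(signal + 16), KNP minus YS, for the 16 probe sets (horizontal axis, log2 units), with points for the difference and bars for limma's 95% interval. Filled black points are the brightest probe set of each gene and open grey points the others. All bars cross 0, and 13 of the 16 points lie to its right.

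Cathepsins B and Z, both of which can trim proteins from the carboxyl end, came nearest to separating the breeds. The CTSB signal (probe set Ssc.1181.1.S1_at) was 41752, 30162, 33765 and 27409 on KNP arrays 1 to 4 and 22897, 21716, 32209.6 and 18407 on YS arrays 1 to 4. YS replicate 3 was the only YS array inside the KNP range, and KNP was higher in 14 of the 16 pairs of 1 KNP with 1 YS array. KNP had a log2 level of 15.00 ± 0.26 (SD, 4 arrays) against 14.51 ± 0.34 for YS, with a CTSB difference of 0.50 ± 0.27 (SE, 95% interval -0.11 to 1.10), with an unadjusted p of 0.0968 and an adjusted p of 1 in limma. The CTSZ signal (Ssc.16769.1.S1_at) was 3783, 4111, 3881 and 4968 in KNP and 2493, 3367, 3751 and 1896 in YS. Every KNP value of CTSZ lay above every YS value, by a narrow margin between KNP replicate 1 and YS replicate 3. It was the only 1 of the 16 probe sets without overlap, where 1.96% of all probe sets tested had none and 1.1% lay wholly above as CTSZ did. For CTSZ, KNP had a log2 level of 12.03 ± 0.18 (SD, 4 arrays) against 11.45 ± 0.44 for YS, 1.49-fold the YS level, a difference of 0.58 ± 0.28 (SE, 95% interval -0.055 to 1.21). Its unadjusted p in limma was 0.0687, rank 749 of 17999, and its adjusted p was 1. An exact two-sided permutation test of CTSZ alone gave p = 0.0286, the smallest that 4 against 4 arrays allow and not adjusted for the number of genes. Values without overlap always give this p, so it restates the lack of overlap and adds no support. By the same exact test CTSB gave p = 0.0857, and every other member probe set gave 0.2 or more. Without YS replicate 4 the CTSZ difference was 0.40, and without the 3 arrays highest in 3'/5' difference it was 0.47 and that of CTSB 0.27.

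Cathepsins H and C act at the amino end of proteins, and cathepsin C activates granzymes and neutrophil proteases. CTSH (Ssc.3593.1.S1_at) gave 2488, 2595, 3352 and 3447 in KNP and 3686, 3517, 3870.2 and 994 in YS. YS replicates 1 to 3 lay above all 4 KNP arrays and YS replicate 4 below them all, so the sign of the CTSH difference depended on 1 array: it was 0.14 ± 0.44 (SE, 95% interval -0.86 to 1.14) with 8 arrays and -0.33 without YS replicate 4. The brightest CTSC probe set, Ssc.6155.1.S1_at, was the steadiest of all members, at 2405, 2182, 1757 and 1976 in KNP and 1927, 1917, 2353 and 2389 in YS, with the highest array 1.37 times the lowest. Its breed difference was -0.047 ± 0.23 (SE, 95% interval -0.57 to 0.47), so a breed difference above 1.39-fold in favour of KNP lay outside its interval. That bound holds for this probe set only. The intervals of the other CTSC probe sets reached 2.57-fold for Ssc.8528.1.A1_at, 2.21-fold for Ssc.8528.3.S1_at and 1.26-fold for Ssc.8528.2.S1_at.

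Cathepsins K and S cut within proteins, and both degrade elastin. Cathepsin K also cuts collagen, and cathepsin S stays active at neutral pH. The CTSK signal (Ssc.1020.1.S1_at) was 4896, 4956, 15578 and 12468 in KNP and 7428, 11004, 8338 and 5923 in YS. KNP replicates 1 and 2 were below all 4 YS arrays, and KNP replicates 3 and 4 above them all. The 3 arrays of largest 3'/5' difference had the 3 lowest CTSK signals. For CTSK, KNP had a log2 level of 13.02 ± 0.87 (SD, 4 arrays) against 12.96 ± 0.37 for YS, with a difference of 0.056 ± 0.44 (SE, 95% interval -0.93 to 1.04). It was 0.66 on the 5 arrays without those 3 (adjusted p = 0.615 in limma), where both KNP values lay above the 3 YS values, and -0.25 without KNP replicate 3.

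Across 8 arrays CTSK fell with the 3'/5' difference at Pearson r = -0.814 (exact permutation p = 0.00729, 0.0583 after Benjamini-Hochberg adjustment over 16 probe sets) and Spearman rho = -0.881 (exact p = 0.00724, adjusted 0.0856). Without KNP replicates 1 and 2, the arrays farthest out in 3'/5' difference, r was -0.778. CTSK was not alone: without those arrays r was -0.983 for CTSD, -0.918 for LGMN and -0.906 for the brightest CST3 probe set. It was -0.817 for CTSH, -0.783 for CTSZ and -0.702 for CTSB, and 0.421 to 0.763 for the CTSC probe sets. Of the arrays left, YS replicate 4 was farthest out in 3'/5' difference, at 4.40. That array was also the lowest for CTSD, LGMN, the brightest CST3 probe set, CTSH, CTSZ and CTSB, so these r values lean on 1 array. On KNP replicate 1, of largest 3'/5' difference, CTSB and LGMN were at their highest (deviations of 0.59 and 0.65 from the gene mean). With all 8 arrays, r for CTSB, CTSD, CTSH, CTSZ, LGMN and that CST3 probe set ran from -0.467 to 0.446. CTSC Ssc.8528.3.S1_at rose at r = 0.789 (exact permutation p = 0.0149, adjusted 0.0795). After adjustment for the 3'/5' difference the CTSK breed difference was 0.41.

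The brightest CTSS probe set, Ssc.17203.1.A1_at, gave 11012, 4435, 4774 and 11224 in KNP and 3451, 5447, 7395 and 6485 in YS. KNP replicates 1 and 4 were above every YS array, and KNP replicates 2 and 3 were below YS replicates 2 to 4. The difference was 0.38 ± 0.41 (SE, 95% interval -0.54 to 1.31), with SDs of 0.73 in KNP and 0.48 in YS. CTSK and CTSS are neighbouring genes on the RefSeq pig assembly Sscrofa11.1. No relation of their levels was detected across the 8 arrays: r was -0.0294 (exact permutation p = 0.942, adjusted 0.942 over 36 pairs of members) and rho 0.0476 (exact permutation p = 0.935, adjusted 0.962), and r was 0.574 without KNP replicates 1 and 3.

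Cathepsin D, the main aspartic protease of the lysosome, had the widest breed difference of the members. The CTSD signal (Ssc.28893.1.A1_at) was 2024, 2922, 4541 and 4257 in KNP and 3034, 2373, 2861 and 990.1 in YS. KNP replicates 3 and 4 were above all YS arrays, KNP replicates 1 and 2 were within the YS range, and YS replicate 4 was the lowest. For CTSD, KNP had a log2 level of 11.68 ± 0.54 (SD, 4 arrays) against 11.07 ± 0.74 for YS, 1.53-fold the YS level, a difference of 0.62 ± 0.42 (SE, 95% interval -0.34 to 1.57), with an unadjusted p of 0.179 and an adjusted p of 1 in limma. Without YS replicate 4 the difference was 0.25, and after adjustment for the 3'/5' difference it was 0.91. Legumain (LGMN, Ssc.6709.1.S1_at), which cuts after asparagine and helps to process other cathepsins, was at 7787, 3959, 5486 and 5399.9 in KNP and 5678, 4680.2, 5233 and 2825 in YS. KNP replicate 1 was the highest and YS replicate 4 the lowest, and the other 6 arrays lay between 3959 and 5678. Its difference of 0.30 ± 0.32 (SE, 95% interval -0.41 to 1.02) became 0.085 without YS replicate 4.

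Cystatin C was measured by 3 probe sets. The brightest, Ssc.8148.1.S1_at, gave 2456, 3018, 4491 and 3455 in KNP and 2707, 2827, 2973 and 1688 in YS, with KNP replicate 1 among the lower values and YS replicate 4 the lowest. KNP had a log2 level of 11.68 ± 0.36 (SD, 4 arrays) against 11.29 ± 0.37 for YS, with a CST3 difference of 0.39 ± 0.29 (SE, 95% interval -0.27 to 1.06), and 0.21 without YS replicate 4. The balance of a protease against this inhibitor within an array was followed by subtracting the CST3 log2 value from that of each protease. The shift of that balance between breeds was between -0.44 for CTSC and 0.19 for CTSZ among the cysteine proteases. For CTSD, which cystatin C does not inhibit, the shift was 0.22 and stands for no balance of that kind. KNP and YS arrays overlapped for all 8 proteases. Only the brightest CST3 probe set was used, and these shifts depend on it: Ssc.8148.2.S1_at had a breed difference of the opposite sign (-0.24). The within-breed SD of the balance was as large as 0.97, for CTSS in KNP.

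**Figure D2:**
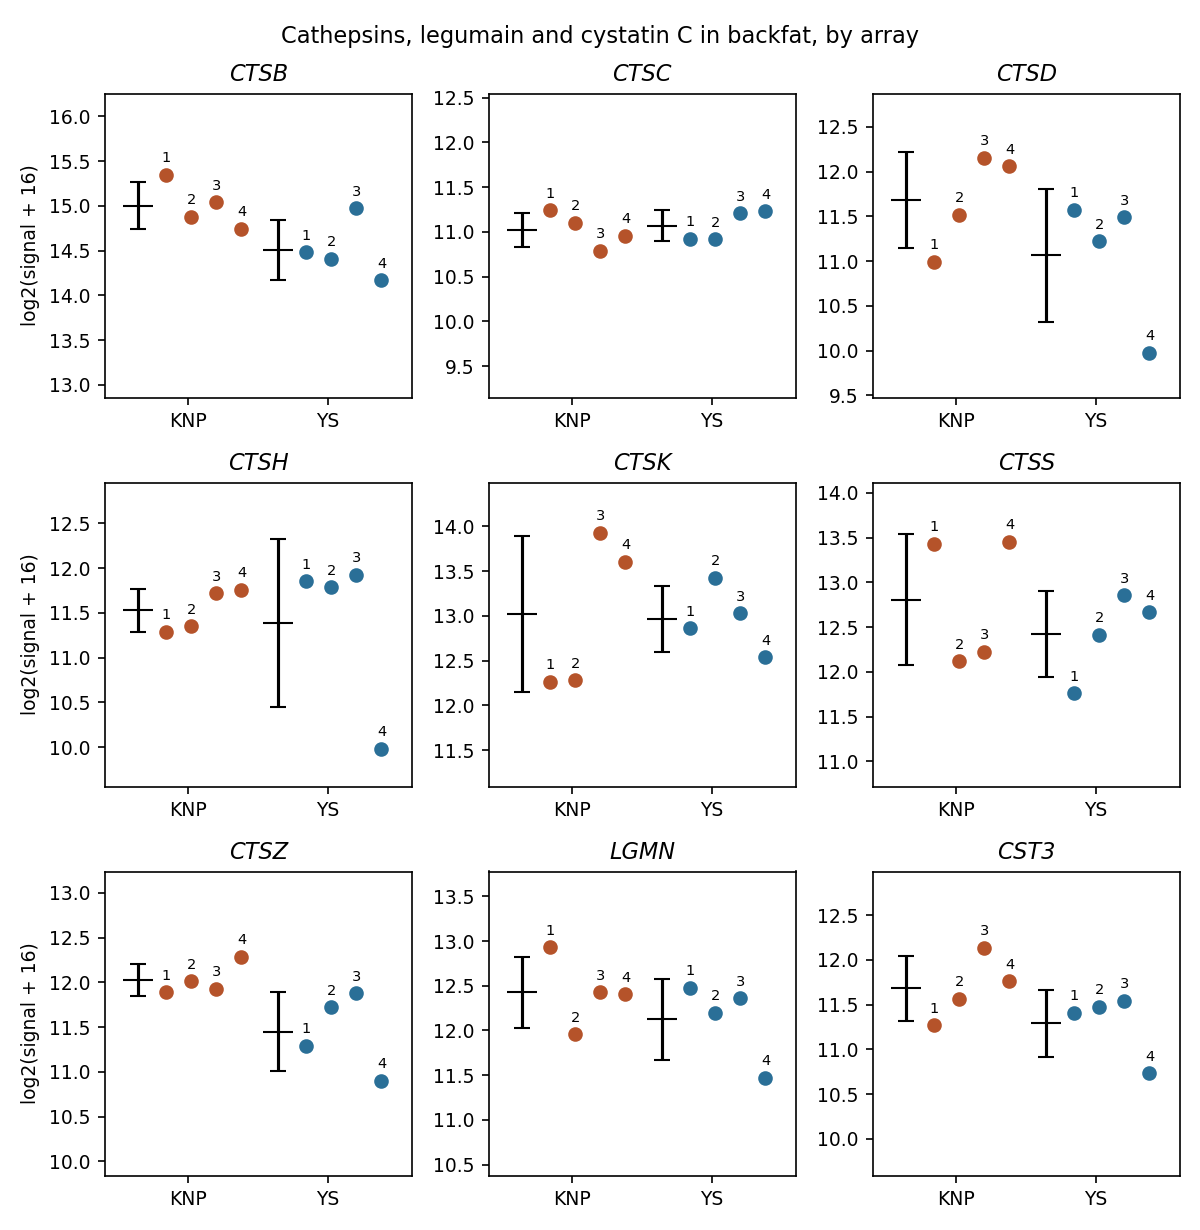
Log2(signal + 16) of the brightest probe set of each of the 9 genes, with 1 point per array (orange KNP, blue YS, numbers are replicates) and, to the left of the points, the mean with bars of 1 SD over 4 arrays. All panels span the same range of log2 units; the KNP points are wholly above the YS points for CTSZ only, and YS replicate 4 is the lowest point for 6 of the 9 genes.

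A single array held most of the lowest values. YS replicate 4 was the lowest of the 8 arrays for 6 of the 9 genes (CTSB, CTSD, CTSH, CTSZ, LGMN and CST3), at deviations of -1.48 to -0.59 from the gene mean. Among the 957 named genes as bright, this array was the lowest for 43.2%. CTSC, CTSK and CTSS were the 3 members not lowest there. KNP replicate 3 was the highest array for CTSD, CTSK and CST3, KNP replicate 1 for CTSB, CTSC and LGMN, KNP replicate 4 for CTSS and CTSZ, and YS replicate 3 for CTSH.

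**Figure D3:**
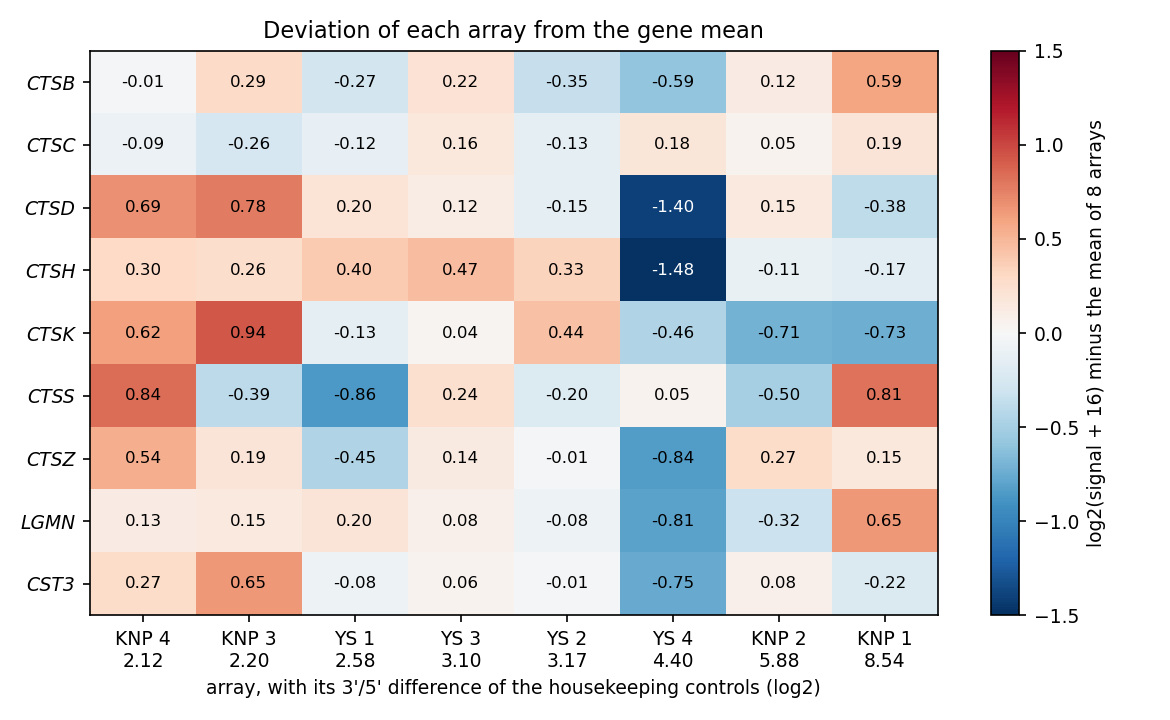
Deviation of each array from the mean of 8 arrays, in log2(signal + 16), for the brightest probe set of each gene (rows), with arrays in order of rising 3'/5' difference, printed under each name. Red is above and blue below the gene mean; the YS replicate 4 column is blue for 7 genes and reaches -1.48 for CTSH.

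The genes with several probe sets did not give 1 pattern each. CTSS probe set Ssc.17203.3.S1_at gave 983, 608, 1843 and 3902 in KNP and 1050.5, 1503, 2261 and 873 in YS, and Ssc.17203.2.S1_at gave 1179, 501, 413 and 902 and 193, 428, 659 and 1059. The size of a gap between probe sets has no meaning of its own, but its change between arrays can be read. The log2 value of Ssc.17203.1.A1_at minus that of Ssc.17203.3.S1_at was 3.46, 2.84 and 2.87 on KNP replicates 1 and 2 and YS replicate 4, and 1.37 to 1.85 on the other 5. The gap was wider on each of these 3 arrays, those of largest 3'/5' difference, than on any other. The CTSS breed difference was 0.38, 0.12 and 0.46 for Ssc.17203.1.A1_at, Ssc.17203.3.S1_at and Ssc.17203.2.S1_at, with SEs of 0.41, 0.56 and 0.53. Without YS replicate 1 they were 0.16, 0.0052 and 0.035, and without YS replicate 4 0.46, -0.082 and 0.82. For Ssc.17203.3.S1_at the difference was 0.80 without the 3 arrays and -0.36 without KNP replicate 4.

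The same 3 arrays stood apart between CTSC probe sets. Ssc.8528.2.S1_at minus Ssc.8528.3.S1_at was -0.85, -0.56 and -0.042 on them and 0.47 to 0.71 on the other 5. The 4 CTSC probe sets differed in sign, with 0.49 for Ssc.8528.1.A1_at, 0.30 for Ssc.8528.3.S1_at, -0.25 for Ssc.8528.2.S1_at and -0.047 for the brightest. The highest r between their array profiles was that of Ssc.8528.1.A1_at and Ssc.8528.3.S1_at, at r = 0.857 over 8 arrays that share their RNA. These pairs were picked after their values were seen.

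For CST3, the second probe set, Ssc.8148.2.S1_a_at, had a profile like that of the brightest (r = 0.938 over the same 8 arrays) and a difference of 0.23 ± 0.28 (SE, 95% interval -0.40 to 0.86). The third, Ssc.8148.2.S1_at, gave 368, 739, 1366 and 1125 in KNP and 1046, 896, 1224 and 719.9 in YS, a difference of -0.24 ± 0.41 (SE, 95% interval -1.16 to 0.69), which was 0.13 without KNP replicate 1. It fell with the 3'/5' difference across 8 arrays at r = -0.949 (exact permutation p = 0.00136, adjusted 0.0218 over 16 probe sets), and at r = -0.838 without KNP replicates 1 and 2. Spearman's rho was -0.857 (exact permutation p = 0.0107, adjusted 0.0856).

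**Figure D4:**
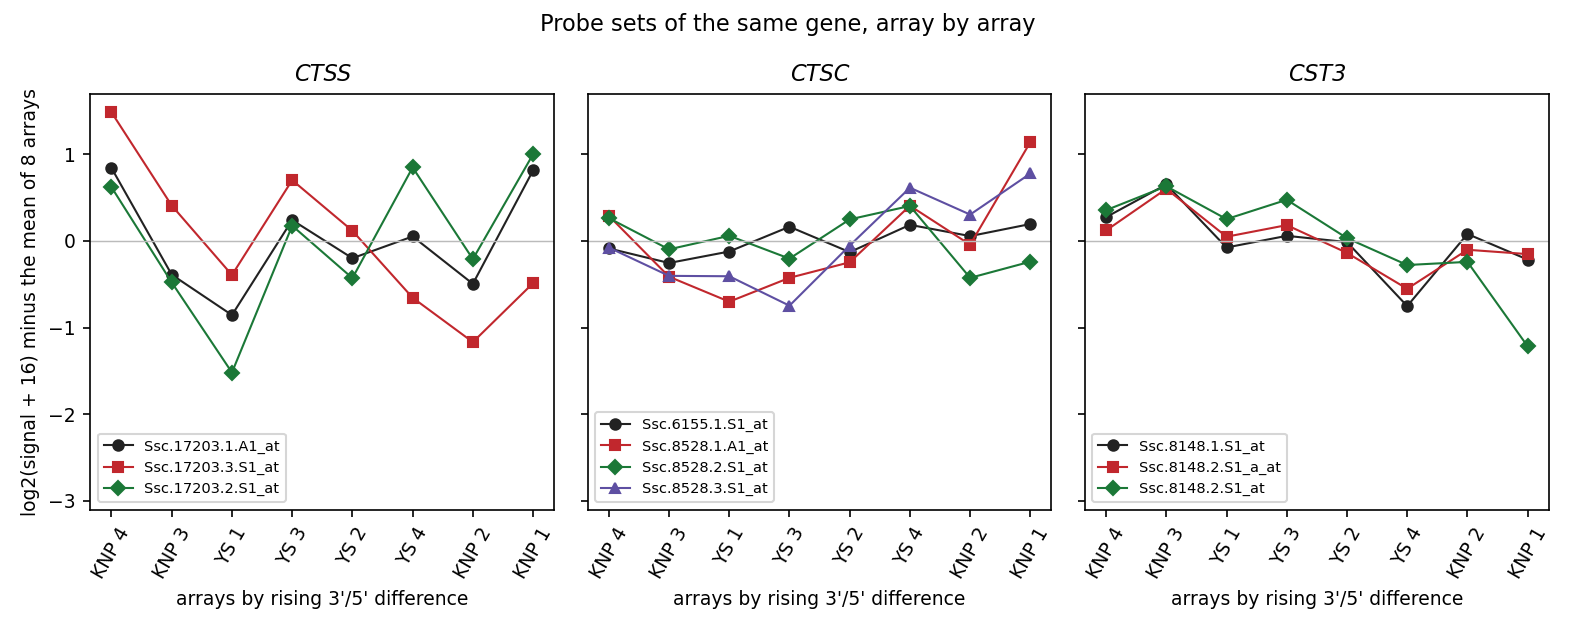
Deviation of each array from the probe set's mean over 8 arrays, in log2(signal + 16), for all probe sets of CTSS, CTSC and CST3, with arrays in order of rising 3'/5' difference. Lines join the values of 1 probe set and stand for no time or dose. On YS replicate 4 and KNP replicates 2 and 1, at the right, Ssc.17203.3.S1_at is the lowest of the CTSS probe sets and Ssc.8528.2.S1_at lies below Ssc.8528.3.S1_at; Ssc.8148.2.S1_at falls away from the other CST3 probe sets on KNP replicate 1.

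Among the 36 pairs of members, 1 correlation across the 8 arrays passed an adjusted p of 0.05. CTSD, a protease, and CST3, an inhibitor that does not act on it, went together at r = 0.955 (exact permutation p = 0.000273, adjusted 0.00983 over 36 pairs) and at r = 0.891 without KNP replicate 3 and YS replicate 4. By ranks they did not pass, at rho = 0.857 (exact permutation p = 0.0107, adjusted 0.335). Both were lowest on YS replicate 4, as were 43.2% of the 957 named genes as bright. Without KNP replicates 1 and 2, YS replicate 4 was the array of largest 3'/5' difference. There r with the 3'/5' difference was -0.983 for CTSD and -0.906 for the brightest CST3 probe set. On all 8 arrays it was -0.467 and -0.441 (exact permutation p = 0.24 and 0.265, adjusted 0.343 for both over 16 probe sets). The part of the 3'/5' difference in this pair was not tested. For CTSC and CTSK the relation was negative and did not pass, at r = -0.792 and rho = -0.786 (exact permutation p = 0.028 and 0.0279, adjusted 0.157 and 0.335), with r = -0.575 without the arrays farthest from the CTSC median, KNP replicate 1 and KNP replicate 3. CTSB and LGMN, at r = 0.743 and rho = 0.619 (exact permutation p = 0.032 and 0.115, adjusted 0.157 and 0.518), had r = -0.0285 without KNP replicate 1 and YS replicate 4, so that relation rested on these arrays.

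The genes whose array profiles were most like those of the members were sought among 6005 other named genes by Pearson r over the 8 arrays. They are a description, with no p, over arrays that these genes share. For CTSS they were LCP1, the actin-bundling protein of leukocytes, at r = 0.964, HNMT at 0.916 and BTBD3 at 0.909. For CTSB they were FES, a tyrosine kinase known from myeloid cells, at r = 0.992, PRRC2A at 0.943 and an uncharacterised gene, LOC100156657, at 0.913. For CTSK they were IGFBP2, a binding protein for insulin-like growth factors, at r = 0.970, GGTA1P at 0.965 and LOC100157017 at 0.953. For CTSD they were THNSL1 at r = 0.977, CST3 at 0.955 and the tetraspanin CD9 at 0.952. For CTSC they were the chemokine CXCL14 at r = 0.963, NDC80 at 0.960 and SMG9 at 0.959. For CTSH they were the growth regulator TSC2 at r = 0.975, OAT at 0.967 and VKORC1 at 0.965. CTSZ was nearest to ZNF577 at r = 0.929, NTPCR at 0.921 and ZFAND2B at 0.913. LGMN was nearest to TAF12 at r = 0.976, CKS1B at 0.971 and H2AFY at 0.954, and CST3 to TIAM2 at 0.979, PCNX1 at 0.975 and TMEM251 at 0.967.

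Other cathepsins and their inhibitors gave no called difference either: of 15 genes listed 5 were on the array and 4 were tested, 1 higher and 3 lower in KNP, with 0 past the adjusted threshold and 0 at an unadjusted p under 0.05 in limma. CTSV, whose RefSeq entry lists CTSL among its synonyms, gave 1501, 1950.5, 3128 and 1921 in KNP and 2357, 3071, 2683 and 3005 in YS. Apart from KNP replicate 3, its KNP values lay below all YS values, and its difference was -0.43 ± 0.28 (SE), opposite in sign to most members. Cystatin B (CSTB), the inhibitor inside the cell, gave 20483, 10444, 14741 and 10960.2 and 14368, 12377, 12705 and 4542, a difference of 0.44 ± 0.41 (SE), with YS replicate 4 again the lowest. A further probe set carried both CTSF and RBM14 and was not used.

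Other lysosomal genes were close to evenly split. Of 47 listed genes for lysosomal enzymes and membrane proteins 30 were tested, 14 higher and 16 lower in KNP, with a median difference of -0.032 and 0 past the adjusted threshold in limma and 2 at an unadjusted p under 0.05. The acid phosphatase ACP2 gave 471, 467, 535 and 519.9 in KNP and 279.5, 289.9, 347 and 195 in YS, without overlap, a difference of 0.83 ± 0.25 (SE) with an unadjusted p of 0.00805 and an adjusted p of 1 in limma. SGSH, a sulphatase of heparan sulphate breakdown, differed by 1.14 ± 0.49 (SE), CTNS, the cystine transporter, by -1.39 ± 0.62 (SE) and GLA, alpha-galactosidase, by -0.52 ± 0.29 (SE), and their breeds overlapped. SGSH on YS replicate 3 and CTNS on KNP replicates 1, 2 and 4 were below the no-target level. Subunits of the proton pump that acidifies the lysosome were 6 higher and 6 lower of 12 tested (median 0.035), and 0 were past either threshold. They were 9 higher and 3 lower without KNP replicate 2, and 4 and 8 without YS replicate 4. Of 7 tested genes for sorting by the mannose 6-phosphate route and for lysosomal transcription factors, 6 had a higher mean and 1 a lower one (median 0.19), and 0 were past either threshold. With KNP replicates 1 and 2 and YS replicate 4 all left out, 4 were higher and 3 lower (median 0.077). The median of 0.19 was that of IGF2R, which was below the no-target level on YS replicate 2. GNPTG, which differed by 0.51, was below that level on YS replicate 4. TFEB, which switches on lysosomal genes, gave 472, 498, 257 and 240.5 in KNP and 288, 213, 347 and 208 in YS, overlapping. M6PR, a receptor of the mannose 6-phosphate tag, differed by -0.31 ± 0.35 (SE) and GNPTAB, the catalytic part of the enzyme that starts the tag, by 0.20 ± 0.25 (SE). Over the 6006 named genes tested the median difference was 0.013.

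Genes whose products work with cathepsins or are cut by them had lower means in KNP on 8 arrays, for class II through 1 array. All 9 tested class II genes, among them CD74, the invariant chain that cathepsin S trims, had a lower mean in KNP (median -0.26, 0 past either threshold in limma). CD74 gave 192, 1569.5, 2197 and 3117 in KNP and 2249, 1995, 3955 and 1317 in YS, with KNP replicate 1 far below the rest and a difference of -0.85 ± 0.78 (SE). Without KNP replicate 1, the array of largest 3'/5' difference, 5 of the class II genes were higher and 4 lower (median 0.0049), and CD74 differed by 0.0049. All 7 tested genes for matrix proteins that cathepsins can cut were lower in KNP as well, with a median of -0.39 and 0 past either threshold. Without YS replicate 4 their count was 6 of 7 lower. The laminin chain LAMB1 differed by -0.43 ± 0.28 (SE) and the collagen chain COL1A2 by -0.34 ± 0.26 (SE). These lists were chosen with earlier results of these arrays known, so their direction is not independent evidence.

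Cell type markers were set beside the members because cathepsins are abundant in macrophages. In bulk tissue, fewer cells of a type and less RNA per cell cannot be told apart. Of 24 macrophage markers 19 were on the array and 18 were tested, 8 higher and 10 lower in KNP, with a median of -0.063, 0 past either threshold and only SIGLEC1 at the no-target level on all arrays. Their summed signal was 7188 to 14829.5 in KNP and 9577 to 20833 in YS. The sum and CTSS differed in order on some arrays. KNP replicate 1, second highest in CTSS, had 9839, and KNP replicate 3, among the 3 lowest in CTSS, had 13149.9. The median deviation of the tested markers from their means was 0.17, -0.62, 0.064 and 0.47 on KNP arrays 1 to 4. On YS arrays 1 to 4 it was -0.26, 0.11, 0.50 and -0.11. CTSS deviated by 0.81, -0.50, -0.39 and 0.84 in KNP and by -0.86, -0.20, 0.24 and 0.050 in YS. The relation of CTSS to these markers was not tested. Without KNP replicate 2, 12 macrophage markers were higher and 6 lower, with a median of 0.22. MRC1, the mannose receptor, differed by -0.68 ± 0.35 (SE), the costimulator CD86 by 0.78 ± 0.49 (SE), the scavenger receptor CD163 by -0.67 ± 0.45 (SE) and the complement gene C1QC by -0.76 ± 0.50 (SE). CD86 was below the no-target level on KNP replicate 2 and YS replicates 2 and 4. Skeletal muscle markers were higher in KNP for 10 of 10 tested (median 1.44, 0 past the adjusted threshold and 2 at an unadjusted p under 0.05 in limma). Without KNP replicate 2 they were 5 higher and 5 lower, with a median of 0.17. TPM2, a tropomyosin, gave 1538, 2860.1, 1592 and 1063 in KNP and 729.6, 932, 564 and 552 in YS, without overlap, a difference of 1.26 ± 0.34 (SE). Fibroblast markers were lower in KNP for 10 of 12 (median -0.33) and T and NK cell markers for 8 of 9 (median -0.51), each with 0 past the adjusted threshold and with 1 and 2 at an unadjusted p under 0.05 in limma. COL1A2, COL3A1, DCN and FN1 were in both the fibroblast list and the list of matrix proteins, so these lists are not separate results. On the 5 arrays without the 3 highest in 3'/5' difference, T and NK cell markers were 4 higher and 5 lower. The part of these cell types in the cathepsin values was not tested.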

How the data were processed

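Total RNA of 8 backfat samples, 4 KNP and 4 YS, was labelled with biotin and hybridised to 1 Affymetrix porcine array each, per the labels' protocols. The authors deposited 1 linear signal intensity per probe set, already scaled so that all arrays have nearly the same trimmed mean (read from the values). For the summary of probes into probe sets, the algorithm is not given in the sources used. Probe sets were named from GEO's platform annotation, and all 16 member probe sets kept their symbol in RefSeq.

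Intensities were used as log2(signal + 16). After 124 control probe sets and the lowest 25% by mean had been left out, 17999 were fitted with limma 3.58.1 (R 4.3.3), with breed as the only factor and Benjamini-Hochberg adjustment over all of them. The brightest probe set stood for a gene in counts. The number of arrays limits the precision: on simulated data for this comparison over 17999 probe sets, the fit recovered 4% of the 2-fold changes and 60% of the 4-fold changes put in, and 96% of those of 16-fold. No 2 arrays held identical values.

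The no-target level of an array was the 95th percentile of control probe sets without a pig target. Exact permutation tests were two-sided. The text names all probe sets of the members, up to 4 genes of each list in order of unadjusted p, and the 3 genes of highest r with each member. Some further list genes are named for their signal level or because lists share them. The members and lists were chosen with earlier results of these data known. Alternatives were other pseudocounts (1 and 64), filters, normalizations, array weights, a trended robust fit, a replicate block, the 3'/5' difference as a covariate, and arrays left out; leaving arrays out of the lists was added after the data had been seen.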

Additional observations from a re-analysis of the deposited data

Results flagged for a closer look

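In 2 of the 32 sets of 4 arrays (16 probe sets in each breed), 1 array lay so far from the others that Dixon's ratio, the gap to the nearest array over the whole range, passed its 95% critical value. Chance alone passes it in about 1 of 20 such sets. Both cases were YS replicate 4 at the low end. For CTSH the ratio was 0.929, with a signal of 994 against 3517 to 3870.2 on the other YS arrays. For the brightest CST3 probe set it was 0.834, with 1688 against 2707 to 2973.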

How the results depend on the processing

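No probe set passed an adjusted p of 0.05 in limma under any of the 20 other settings run, and the smallest adjusted p of a member over them was 0.58, for CTSD without the 3 arrays highest in 3'/5' difference. The number of probe sets at an unadjusted p under 0.05 was 511 as reported, 883 without YS replicate 4, 777 without KNP replicate 1, 975 with array weights, 877 after adjustment for the 3'/5' difference and 1492 without those 3 arrays. Of the 16 member probe sets, 0 were past it as reported and 2 without YS replicate 3, where 417 of all 17999 were past it. The count was 1 with the lowest 50% left out, quantile normalization, the trended robust fit, the 3'/5' adjustment or those 3 arrays left out. Over all probe sets it was 372 of 11999 for the first of these, 583 for the second and 474 for the third. All of these member probe sets were higher in KNP. Over all probe sets, 235 of the 417, 184 of the 372, 282 of the 583 and 235 of the 474 were higher. So were 307 of the 877 and 703 of the 1492. The CTSH difference reversed to -0.10 with array weights and -0.12 without the 3 arrays. Differences also reversed for CST3 Ssc.8148.2.S1_at (0.12 after that adjustment, 0.24 without the 3 arrays) and CTSC Ssc.8528.2.S1_at (0.049 without the 3 arrays), and for CTSC as the mean of its probe sets (0.12). With single arrays left out, the differences that changed sign ranged over -0.49 to 0.13 for Ssc.8148.2.S1_at, -0.25 to 0.31 for CTSK, -0.12 to 0.030 for CTSC Ssc.6155.1.S1_at, -0.36 to 0.53 for CTSS Ssc.17203.3.S1_at and -0.33 to 0.32 for CTSH. The cause was not tested. The replicate numbers did not pair the samples: same-numbered arrays' deviations correlated at -0.188 to 0.125. With the replicate number as a block, 0 probe sets passed, 509 had an unadjusted p under 0.05, and the CTSZ difference was 0.58.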
